A study of Mus musculus with 9 samples.

Results

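DNA methylation was examined at 9 genes of mesoderm and endoderm regulators, namely Gata2, Gata3, Gata4, Gata5 and Gata6, Hand1 and Hand2, and the COUP-TF genes Nr2f1 and Nr2f2, in cultured brown and white fat cells of the mouse. All cytosines of the deposited table that lay in the body of one of these genes or within 10000 bp to either side were taken, which gave 1098 of 838481 cytosines. Of these, 1064 fell into 63 of the 67233 fragments of the table, where a fragment is a run of at least 4 measured cytosines with gaps of at most 300 bp. The gene bodies are those of GENCODE vM1 on mm9 (NCBIM37).

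The levels came from reduced representation bisulfite sequencing (RRBS), in which DNA is cut at CCGG and TCGA sites, short pieces are kept, and bisulfite turns unmethylated cytosine into a base read as thymine. Preadipocytes of BL6 mice, killed at 3 weeks of age, were taken from the interscapular brown depot (BAT) or the inguinal white depot (WAT), grown to confluence and induced with insulin, dexamethasone, isobutylmethylxanthine and rosiglitazone. The brown libraries were BAT of day 0, day 4 and day 6 and BAT + NE, which is day 6 after 4 h of norepinephrine. The white libraries were BWAT, cells of the white depot differentiated in the presence of norepinephrine, of day 4 and day 6, and WAT of day 0, day 4 and day 6. Day 0 was the confluent culture before induction. Each condition was 1 library, tissue of several mice was processed together, and no label tells whether the days of a cell type were separate cultures, so SDs and p-values below measure only the spread between these 9 libraries.

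The mean level over all cytosines was 40.2 to 40.8% in the 4 brown libraries and 40.8 to 41.2% in the 5 white and BWAT libraries. Depth is unknown beyond the minimum of 10 reads per cytosine that the authors required in every library. The cell type labels were set beside promoter levels of marker genes, since expression was not analysed here. Of 17 markers, 9 had a measured promoter and 5 of these differed between brown and white/BWAT libraries. Hoxc10, a white-depot marker, averaged 18.2% in brown and 2.47% in white/BWAT libraries, and Ebf2, a brown-lineage marker, averaged 9.08% in brown and 18.8% in white/BWAT libraries. The other brown markers measured were not called, with 3.35% in brown and 1.46% in white/BWAT libraries at Cidea (adjusted p = 0.234) and 11.98% in brown and 12.1% in white/BWAT libraries at Zic1 (adjusted p = 0.966). Pecam1 of endothelium averaged 48.5% in brown and 72.2% in white/BWAT libraries, and Myf5 of the muscle lineage averaged 82.3% in brown and 93.8% in white/BWAT libraries, while Myod1, also of muscle, averaged 1.71% in brown and 2.38% in white/BWAT libraries (adjusted p = 0.848). A library is a mean over the cells of a dish, so a different mix of cells and a different level within cells cannot be told apart, and the part of these markers in the values below was not tested.

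GATA factors are zinc-finger proteins that bind GATA motifs. Gata2 and Gata3 are known from blood and lymphoid cells and as brakes on the conversion of preadipocytes to fat cells, while Gata4, Gata5 and Gata6 act in heart and gut endoderm. Hand1 and Hand2 are basic helix-loop-helix factors of heart, limb and trophoblast development. Nr2f1 and Nr2f2 encode the orphan nuclear receptors COUP-TFI and COUP-TFII, which act in neural development and in vein identity, and COUP-TFII also takes part in the control of adipogenesis. The start regions of such genes are usually CpG islands, stretches rich in CpG that stay unmethylated in most tissues.

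The sequences below come from fragments with the brown-white differences described further on, and the last one is an unmethylated neighbour for contrast. The printed part of the Gata2 intron fragment holds 31 of its 39 cytosines. It leaves out the cytosine with the largest brown minus white/BWAT difference, −22.0 points. Each is the plus strand of NCBIM37 from 5′ to 3′, and the capitals mark the CpGs whose methylation was measured. The Gata2 sequences are on the gene's own strand, as is that of Hand2, while Nr2f1 and Nr2f2 are read from the minus strand.
Hand2 intron fragment, chr8:59802300-59802426: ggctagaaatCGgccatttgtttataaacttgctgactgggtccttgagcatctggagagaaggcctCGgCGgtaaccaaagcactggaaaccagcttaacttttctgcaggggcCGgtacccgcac
Gata2 coding-exon fragment, chr6:88152408-88152540: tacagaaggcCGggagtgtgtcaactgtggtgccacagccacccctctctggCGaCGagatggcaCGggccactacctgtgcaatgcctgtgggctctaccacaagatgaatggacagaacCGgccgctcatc
Gata2 intron fragment, part, chr6:88146616-88146774: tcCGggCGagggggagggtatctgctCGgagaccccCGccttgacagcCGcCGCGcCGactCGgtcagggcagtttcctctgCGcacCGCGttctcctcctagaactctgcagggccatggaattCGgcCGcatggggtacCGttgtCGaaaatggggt
Nr2f1 upstream fragment, chr13:78348413-78348582: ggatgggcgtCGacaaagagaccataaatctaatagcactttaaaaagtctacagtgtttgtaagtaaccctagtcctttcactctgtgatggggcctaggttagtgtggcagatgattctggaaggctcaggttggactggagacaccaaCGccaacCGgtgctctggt
Nr2f2 intron fragment, chr7:77507208-77507366: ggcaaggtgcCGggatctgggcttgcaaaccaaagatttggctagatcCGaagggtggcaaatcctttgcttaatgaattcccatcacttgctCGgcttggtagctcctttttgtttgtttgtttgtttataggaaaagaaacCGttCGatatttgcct
Nr2f2 unmethylated neighbour, part, chr7:77506440-77506739: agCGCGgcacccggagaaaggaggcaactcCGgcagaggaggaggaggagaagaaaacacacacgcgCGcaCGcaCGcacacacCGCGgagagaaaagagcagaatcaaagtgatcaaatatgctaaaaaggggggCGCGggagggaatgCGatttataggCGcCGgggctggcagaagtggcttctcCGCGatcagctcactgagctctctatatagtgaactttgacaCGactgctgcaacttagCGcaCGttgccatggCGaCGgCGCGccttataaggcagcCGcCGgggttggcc
The Nr2f2 sequences differ in CpG density. The called fragment held 5 measured CpGs in a stretch with few CpGs, and the unmethylated one held 24 within 300 bases.

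The genes stood far apart in level. Over the 9 libraries the gene windows, which are the gene body with both flanks, had a median level of 17.0% and lay between 4.17 and 35.1%, against a median of 38.5% over all 23685 gene windows. Nr2f1 was the most methylated of the 9 genes. Its window of 140 cytosines stood at 33.5, 37.0, 39.0 and 36.4% in BAT at days 0, 4 and 6 and in BAT + NE, against 35.7 and 34.4% in BWAT of days 4 and 6 and 31.7, 33.5 and 34.4% in WAT of days 0, 4 and 6. The groups overlapped.

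At the other end were Nr2f2, with 146 cytosines of which 144 were under 30%, and Gata5, with 64 of 66 under 30%. The Nr2f2 window had 3.82, 4.77, 5.09 and 4.41% in BAT at days 0, 4 and 6 and BAT + NE, against 3.86 and 4.06% in BWAT and 3.42, 3.80 and 4.29% in WAT. The Gata5 window had 3.99, 5.04, 4.13 and 4.99% in BAT at days 0, 4 and 6 and BAT + NE, against 5.44 and 4.91% in BWAT and 4.77, 4.42 and 4.69% in WAT. The spread within Gata5 groups covered the gap between them. Of its 66 cytosines, 65 also lay inside Gm14318, a gene on the opposite strand.

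**Figure D1:**
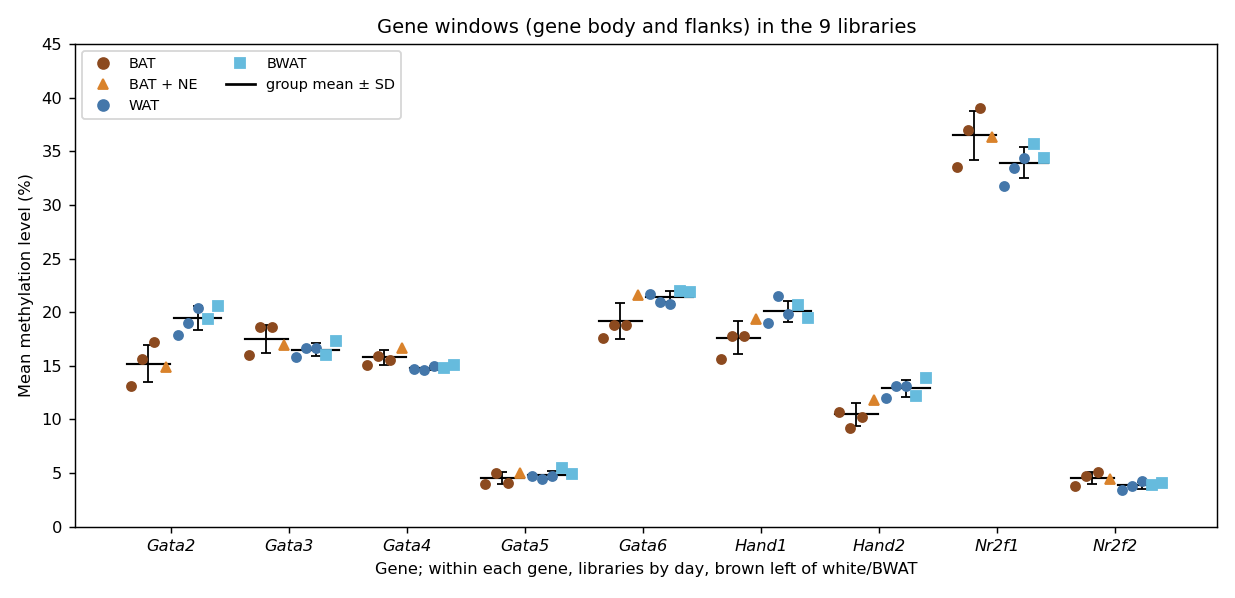
Mean methylation level (%) of the cytosines in the gene body and 10000 bp to each side, for 9 genes. Each point is 1 library, with brown libraries left of white and BWAT libraries and in order of day within a group, and lines with bars are group means ± SD (n = 4 brown, n = 5 white and BWAT). Nr2f1 stands highest, Nr2f2 and Gata5 lowest, and only Gata2 and Hand2 have brown points that all lie under the white and BWAT points.

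Between these extremes the Gata2 window showed the clearest split of the cell types. Its 142 cytosines averaged 13.1, 15.7, 17.2 and 14.9% in BAT at days 0, 4 and 6 and in BAT + NE, against 19.3 and 20.6% in BWAT and 17.9, 19.0 and 20.4% in WAT. All 4 brown libraries lay under all 5 white and BWAT libraries, and the group means were 15.2 ± 1.71% (SD, n = 4) and 19.4 ± 1.10% (SD, n = 5). On the log2 odds scale the brown minus white/BWAT difference was −0.40 (SE 0.058), with a limma adjusted p of 0.00680 over all gene windows.

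The Hand1 window, with 125 cytosines, had 15.6, 17.8, 17.8 and 19.3% in BAT at days 0, 4 and 6 and BAT + NE, against 20.6 and 19.5% in BWAT and 19.0, 21.5 and 19.9% in WAT. Its means of 17.6 ± 1.53% in brown and 20.1 ± 0.978% in white/BWAT libraries differed by −0.22 (SE 0.052) in log2 odds with an adjusted p of 0.0439. The Nr2f2 window averaged 4.53 ± 0.545% in brown and 3.89 ± 0.324% in white/BWAT libraries, a log2 odds difference of 0.20 (SE 0.049) that met the threshold only narrowly, with an adjusted p of 0.04998. In all, 3 of the 9 windows were called, 1 higher and 2 lower in brown, where 9.04% of all gene windows were called.

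The other 6 windows did not pass. Hand2, with 96 cytosines, had 10.7, 9.22, 10.2 and 11.8% in BAT at days 0, 4 and 6 and BAT + NE, against 12.2 and 13.9% in BWAT and 12.01, 13.2 and 13.2% in WAT, with no overlap and an adjusted p of 0.0533. Gata6, with 103 cytosines, had 17.6, 18.8, 18.8 and 21.6% in BAT at days 0, 4 and 6 and BAT + NE, against 21.99 and 21.8% in BWAT and 21.7, 21.0 and 20.8% in WAT. There the 3 BAT libraries lay under the white ones and BAT + NE among them, and the adjusted p was 0.123.

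Gata3, with 157 cytosines, had 16.0, 18.6, 18.6 and 16.9% in BAT at days 0, 4 and 6 and BAT + NE, against 16.0 and 17.3% in BWAT and 15.8, 16.7 and 16.6% in WAT (adjusted p = 0.242). Gata4, with 123 cytosines, had 15.047, 15.9, 15.6 and 16.7% in BAT at days 0, 4 and 6 and BAT + NE, against 14.8 and 15.055% in BWAT and 14.7, 14.6 and 15.0% in WAT (adjusted p = 0.0941). Both overlapped between cell types, at Gata4 only through BAT of day 0 and BWAT of day 6. At Gata3, 44 of the cytosines also lay inside 4930412O13Rik, 37 inside 9230102O04Rik and 32 inside Gm13256. The Nr2f1 window gave 0.0594 and the Gata5 window 0.615. With BAT and WAT alone and day as a block all 3 calls were lost, at adjusted p of 0.130 for Gata2, 0.135 for Hand1 and 0.182 for Nr2f2. Leaving out 1 library kept the Gata2 call in all 9 cases, but the Hand1 call in 2 and the Nr2f2 call in none. The adjusted p then ran over 0.0293 to 0.134 for Hand1 and over 0.0508 to 0.119 for Nr2f2. Without BAT + NE 4 windows were called, and all were lower in brown.

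The regions around transcription starts were largely unmethylated in every library. Of 27 annotated starts of the 9 genes, 25 had a measured fragment within 1500 bp, which came to 17 distinct fragments. Of these, 10 stayed under 10% in all libraries. Gata5 had its first exon measured by 64 cytosines at 2.21 to 3.15% over the libraries. The fragment next to the start of Gata6 lay at 0.741 to 3.09% and that of Hand2 at 0 to 4.78%. That at the inner Nr2f2 start lay at 1.23 to 4.06% and that next to the outermost Gata2 start at 0 to 5.15%. These ranges covered brown and white cells alike.

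Higher levels occurred at starts of alternative, mostly shorter transcripts within the genes. The Gata4 fragment 15 bp from an internal start had 59.98 to 70.4% and the Hand1 fragment nearest to its internal start had 42.3 to 55.1%. A Gata3 fragment 759 bp from an internal start had 32.9 to 42.6%. The Gata2 fragment nearest to its internal start, 1364 bp away, had 19.4 to 33.1%. The Nr2f1 fragment 461 bp from its most downstream start was the most methylated of the start fragments at 79.6 to 87.3%. None of the 17 fragments was called between cell types. The smallest limma adjusted p, 0.0502, was at the Nr2f1 coding-exon fragment 942 bp from a start, described further on. It averaged 49.7% in brown and 42.1% in white/BWAT libraries. Of 11 promoters, taken from 1000 bp before to 500 bp after a start, 0 were called by limma and 1 had an unadjusted p under 0.05, where 1.37% of all promoters were called and 10.501% had an unadjusted p under 0.05. That promoter, at the longest Gata3 transcript, rested on 2 cytosines and averaged 11.9 ± 3.22% in brown and 9.04 ± 1.88% in white/BWAT libraries (adjusted p = 0.263). Gata6 and Hand2 had no promoter with 2 measured cytosines.

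Level and CpG content ran in opposite directions over the 63 fragments, start fragments included. Over all 63 the Spearman rho between the ratio of observed to expected CpG and the mean level was −0.49, which describes fragments that share genes and libraries. The 42 fragments with a ratio of at least 0.6 had a median level of 4.67%, and the 21 others had 39.0%. In total 31 fragments (49.2%) were under 10% on average, against 22.8% of all fragments of the table.

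**Figure D2:**
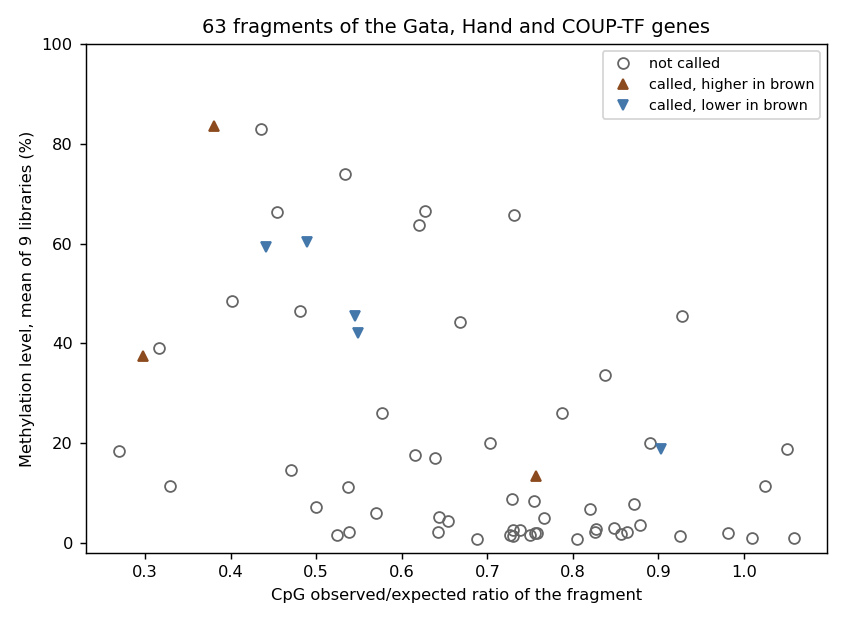
Mean methylation level over the 9 libraries (%) against the ratio of observed to expected CpG, for 63 fragments of the 9 genes. Filled triangles are the 8 fragments called between cell types, 3 higher (up) and 5 lower (down) in brown, and open circles the rest. All called fragments lie above 10%, and most fragments with a high ratio lie near 0.

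Between brown and white/BWAT libraries 8 of the 63 fragments were called (12.7%), 3 higher and 5 lower in brown. The background was 9.43% of all fragments, with 3.52% higher and 5.91% lower in brown. All 8 had a mean level of at least 10%. In that class 8 of the 32 fragments of these genes were called, beside 11.8% (6115 of 51919) over the whole table. In 14 of the 63 fragments (22.2%) brown and white/BWAT libraries did not overlap, 6 higher and 8 lower in brown, where 12.3% of all fragments did not overlap. An unadjusted p under 0.05 was found for 23 (36.5%), beside 21.7% of all fragments. With BAT and WAT alone and day as a block, none of the 8 passed, at adjusted p of 0.0533 to 0.192. At single cytosines 37 of 1098 (3.37%) did not overlap, 13 higher and 24 lower in brown, beside 3.77% of all cytosines. The calls belonged to Gata2, Gata6, Hand2, Nr2f1 and Nr2f2, and none to Gata3, Gata4, Gata5 or Hand1.

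Gata2 held 3 called fragments, all lower in brown, spread over the gene body. The farthest downstream lay in the 3′ UTR (chromosome 6, 88156687 to 88156816) and had 8 cytosines. It stood at 55.6, 49.7, 57.8 and 43.4% in BAT at days 0, 4 and 6 and in BAT + NE, against 63.6 and 69.6% in BWAT and 60.6, 64.8 and 69.3% in WAT. No brown library reached a white one, and the log2 odds difference was −0.82 (SE 0.20, adjusted p = 0.0310). The difference had the same direction at all 8 cytosines and a like size on both strands, −14.3 points on the forward and −13.6 points on the reverse strand.

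The fragment in the coding exon, whose sequence is given above, encodes part of the N-terminal zinc finger. Its 9 cytosines averaged 47.4, 58.1, 58.8 and 54.8% in BAT at days 0, 4 and 6 and BAT + NE, against 64.4 and 65.8% in BWAT and 60.2, 64.9 and 67.9% in WAT. Again the groups did not overlap, with a log2 odds difference of −0.56 (SE 0.12, adjusted p = 0.0169), and all 9 cytosines were lower in brown. The strands were unlike in size, at −5.84 points on the forward and −14.9 points on the reverse strand.

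The Gata2 intron fragment was longer, with 39 cytosines over 394 bp. It had 10.4, 15.7, 19.3 and 16.8% in BAT at days 0, 4 and 6 and BAT + NE, against 20.7 and 21.5% in BWAT and 19.5, 21.5 and 23.8% in WAT. BAT of day 6 lay just under WAT of day 0, the lowest white library, and the log2 odds difference of −0.54 (SE 0.15) had an adjusted p of 0.0473. Of its cytosines 34 were lower and 5 higher in brown. The forward strand gave −7.19 points and the reverse strand −4.43 points. The call was lost when any library but BAT of day 6 was left out (adjusted p of 0.05998 to 0.162), and when the cytosines of restriction sites were left out (0.0645). It was also lost with both strands averaged (0.0592) and with no day term (0.0975). It held in 4 of 16 alternatives, the fewest of all called fragments. The coding-exon call was lost without either library of day 0 (0.0698) and without BAT + NE (0.0543). The 3′ UTR call was lost without BAT of day 4, BAT + NE, WAT of day 4 or 6 or either BWAT library, at 0.0502 to 0.0870. The Gata2 fragment upstream of the gene, 3149 to 3011 bp before the start, averaged 16.5% in brown and 22.8% in white/BWAT libraries with an adjusted p of 0.0629.

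**Figure D3:**
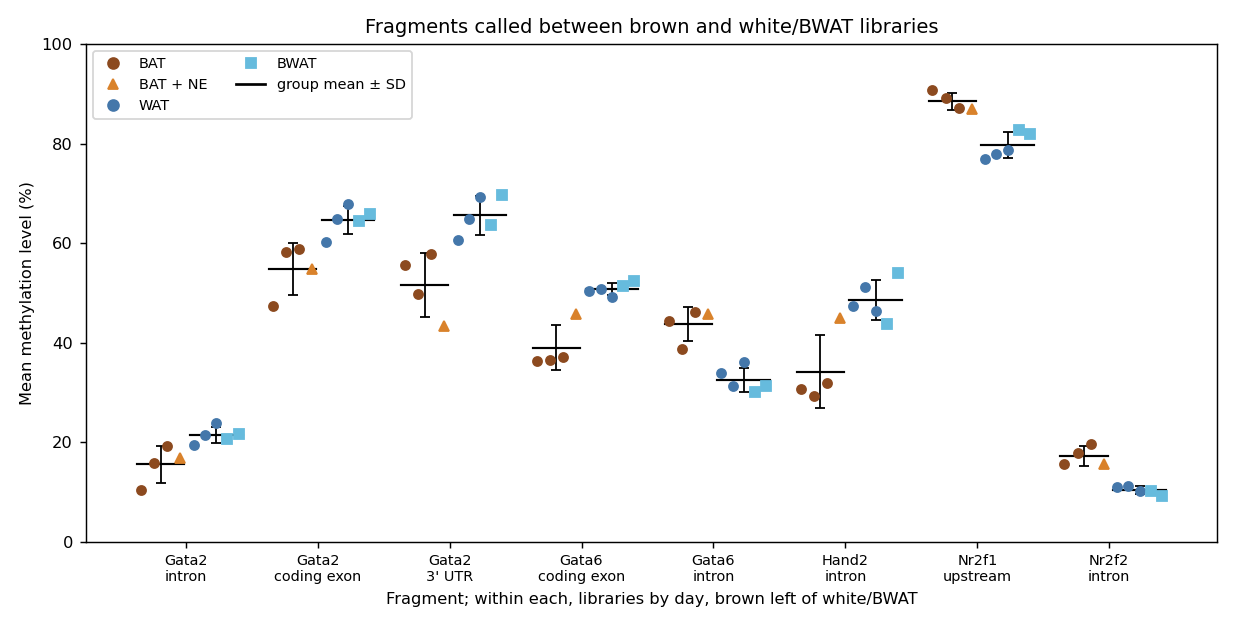
Mean methylation level (%) of the 8 fragments called between cell types. Each point is 1 library, with brown left of white and BWAT and in order of day within a group, and lines with bars are group means ± SD (n = 4 brown, n = 5 white and BWAT). In the Hand2 intron the BAT + NE point, at 44.95%, lies above the lower BWAT point at 43.7%, whereas the groups are separate in the other 7.

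Gata6 carried calls of opposite direction within its gene body. The fragment over a coding exon and the adjoining intron, 6247 to 6625 bp after the start, had 32 cytosines and was lower in brown. It stood at 36.4, 36.6, 37.1 and 45.8% in BAT at days 0, 4 and 6 and in BAT + NE, against 51.3 and 52.3% in BWAT and 50.3, 50.8 and 49.1% in WAT. The log2 odds difference was −0.68 (SE 0.14, adjusted p = 0.0162), 31 of 32 cytosines were lower in brown, and the strands gave −11.8 and −11.9 points. BAT + NE lay 8.73 points above BAT of day 6.

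The other Gata6 fragment lay in an intron 26972 to 27101 bp after the start, had 4 cytosines and was higher in brown. It had 44.3, 38.7, 46.1 and 45.8% in BAT at days 0, 4 and 6 and BAT + NE, against 30.01 and 31.3% in BWAT and 33.8, 31.2 and 36.2% in WAT. The log2 odds difference was 0.67 (SE 0.14, adjusted p = 0.0161). The 2 cytosines in restriction sites differed by 18.3 points and the 2 others by 4.17 points. The strands were unlike, with 2.93 points on the forward and 19.5 points on the reverse strand. The exon call was lost without either library of day 0 (0.0646), BAT of day 4 (0.0533) or BAT of day 6 (0.0523). The intron call was lost without either library of day 0 (0.0505), BAT of day 6 (0.0525) or BAT + NE (0.0530). In a coding exon nearer to the start, a fragment of 41 cytosines had 4.01% in brown and 2.29% in white/BWAT libraries (adjusted p = 0.0746).

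Hand2 had the call with the largest difference of group means. The intron fragment of 7 cytosines, 2530 to 2636 bp after the start, had 30.6, 29.2, 31.8 and 44.95% in BAT at days 0, 4 and 6 and in BAT + NE, against 43.7 and 53.97% in BWAT and 47.3, 51.1 and 46.4% in WAT. The 3 BAT libraries lay well under all white ones, while BAT + NE lay within their range. The means were 34.1 ± 7.29% in brown and 48.5 ± 4.05% in white/BWAT libraries, a log2 odds difference of −0.85 (SE 0.21, adjusted p = 0.0352), with all 7 cytosines lower in brown. The forward strand gave −15.6 points and the reverse strand −13.4 points. The call held without BAT + NE (adjusted p = 0.00675) and without BWAT of day 4 (0.0380), and was lost without any one of the other 7 libraries (0.0546 to 0.114).

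The next Hand2 fragment, in the downstream flank 5839 to 5982 bp after the start, had 61.4, 51.0, 58.5 and 60.8% in BAT at days 0, 4 and 6 and BAT + NE, against 63.8 and 71.1% in BWAT and 62.8, 71.0 and 73.4% in WAT. The groups did not overlap, and the adjusted p was 0.0757. Beyond it, a stretch of 54 cytosines 7289 to 8014 bp after the start averaged 1.71% in brown and 1.72% in white/BWAT libraries.

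The gene windows most like the Hand2 intron fragment over the 9 libraries were those of Xrcc1, a DNA repair scaffold, Nin, a centrosome protein, and Exosc3, a subunit of the RNA exosome, with Pearson r of 0.97, 0.97 and 0.96 on the log2 odds scale among 16019 windows with at least 20 cytosines. The 9 libraries share cell type and day, so these values are a description. The Xrcc1 window had 53.4, 52.4, 52.5 and 56.3% in BAT at days 0, 4 and 6 and BAT + NE, against 56.5 and 58.5% in BWAT and 57.9, 57.9 and 58.1% in WAT.

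The called fragments of the COUP-TF genes, 1 in each, were higher in brown. At Nr2f1 the fragment lay 9554 to 9405 bp before the start, inside the long non-coding RNA gene A830082K12Rik, which runs the other way. It had 90.7, 89.1, 87.1 and 86.96% in BAT at days 0, 4 and 6 and in BAT + NE, against 82.8 and 82.0% in BWAT and 76.8, 77.9 and 78.6% in WAT. The groups did not overlap, and the log2 odds difference was 0.92 (SE 0.17, adjusted p = 0.00751).

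The Nr2f2 fragment, in an intron 4265 to 4403 bp after the outermost start, had 15.6, 17.9, 19.6 and 15.6% in BAT at days 0, 4 and 6 and in BAT + NE, against 10.3 and 9.25% in BWAT and 11.05, 11.2 and 10.1% in WAT. Every brown library was higher than every white one, all 8 cytosines were higher in brown, and the log2 odds difference was 0.79 (SE 0.13, adjusted p = 0.00537). The forward strand gave 4.62 points and the reverse strand 8.98 points. Its neighbour, 4891 to 5295 bp after that start, had 45 cytosines at 1.05% in brown and 0.974% in white/BWAT libraries. Both COUP-TF calls held when any 1 library was left out, with adjusted p up to 0.0306 at Nr2f1 and 0.0199 at Nr2f2, and both were lost with BAT and WAT alone and day as a block (0.0534 at Nr2f1 and 0.113 at Nr2f2). Cytosines in restriction sites carried more of the difference at both. They gave 14.0 points against 3.67 points at the others for Nr2f1, which has 2 of each kind, and 12.3 against 4.96 points for Nr2f2, where the test without them gave an adjusted p of 0.0248.

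**Figure D4:**
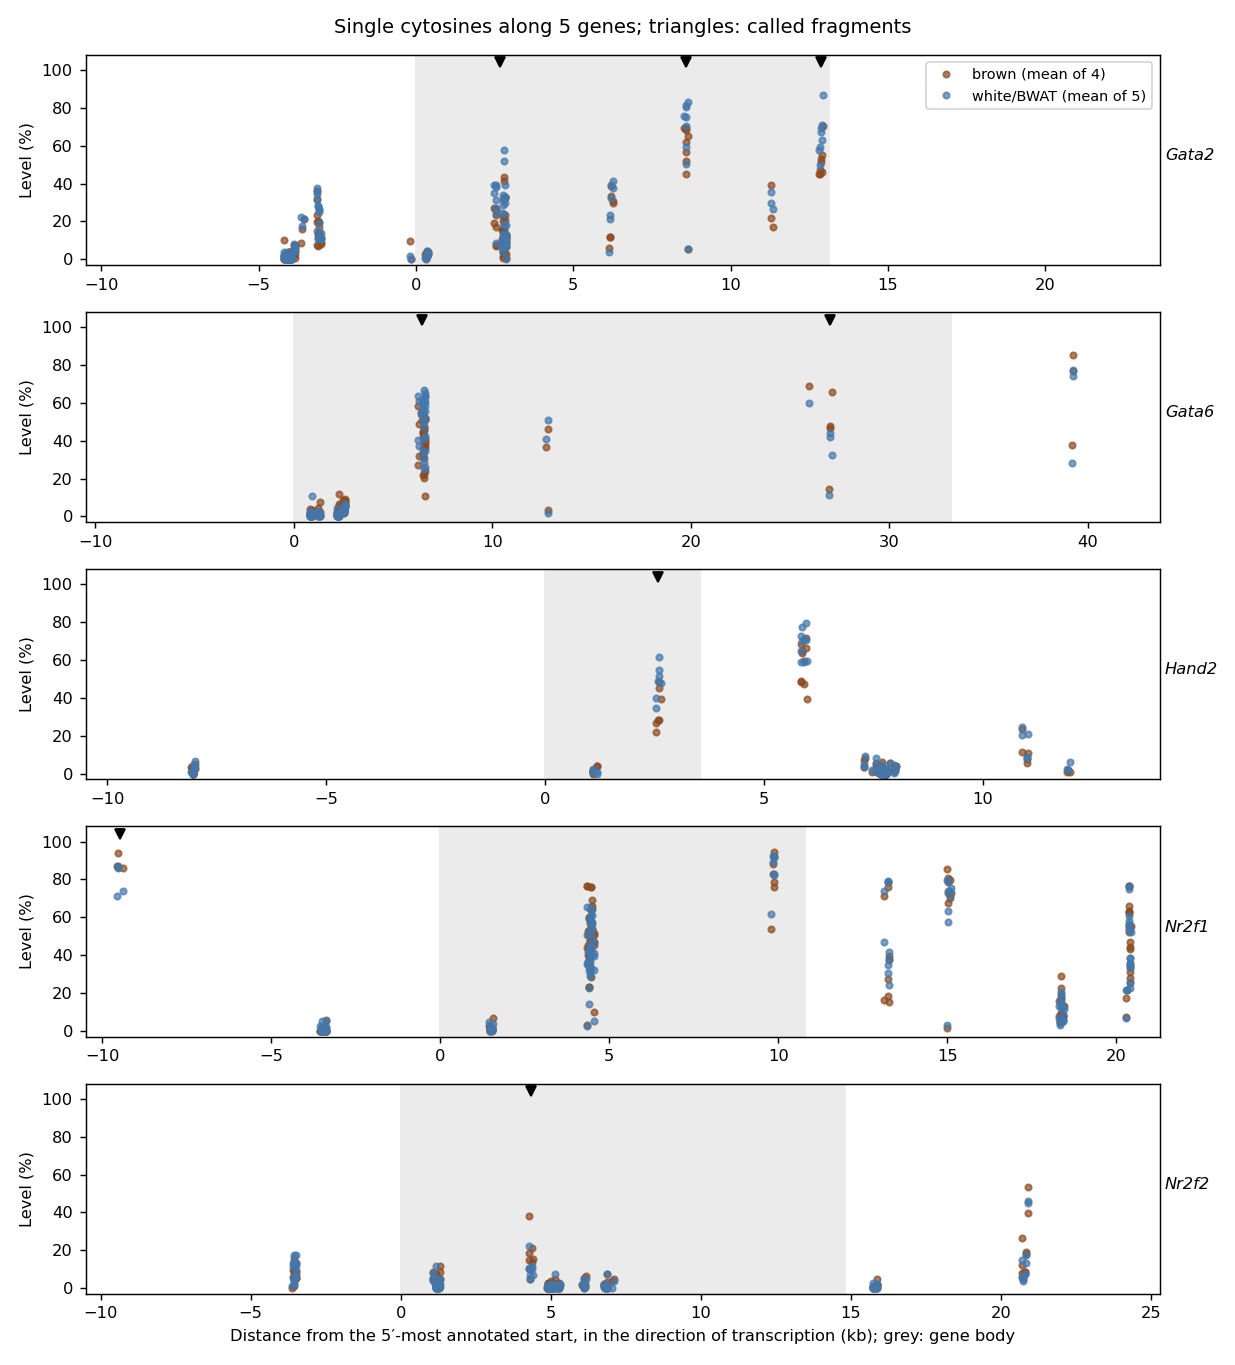
Methylation level (%) of single cytosines against the distance from the 5′-most annotated start in the direction of transcription (kb), for the 5 genes with a called fragment. Brown points are means of the 4 brown libraries and blue points means of the 5 white and BWAT libraries, grey marks the gene body, and triangles mark called fragments. Levels near the start lie close to 0 in both cell types, and the called fragments lie kilobases away from it.

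Within Nr2f1 a coding-exon fragment of 41 cytosines came closest to a further call. It stood at 48.4, 48.9, 52.6 and 48.8% in BAT at days 0, 4 and 6 and BAT + NE, against 42.5 and 40.0% in BWAT and 43.5, 41.3 and 43.2% in WAT. Every brown library lay above every white one, and the adjusted p was 0.0502. Another coding-exon fragment, close to the gene end, at 80.9% in brown and 84.7% in white/BWAT libraries, had an adjusted p of 0.158.

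For the 4 genes without a call the fragment with the largest difference is given as a value. At Gata3 it was an intron fragment of 6 cytosines with 26.1, 37.9, 32.0 and 25.2% in BAT at days 0, 4 and 6 and BAT + NE, against 18.1 and 25.03% in BWAT and 19.5, 23.6 and 26.2% in WAT (adjusted p = 0.113). At Gata4 it was an intron fragment with 74.3, 79.7, 78.8 and 74.9% in BAT at days 0, 4 and 6 and BAT + NE, against 65.5 and 73.9% in BWAT and 72.9, 72.2 and 73.2% in WAT (adjusted p = 0.188). These overlapped at Gata3 and did not at Gata4.

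At Hand1 it was a fragment of 40 cytosines over the 3′ end of the gene, with 28.0, 32.1, 29.2 and 32.9% in BAT at days 0, 4 and 6 and BAT + NE, against 37.8 and 33.6% in BWAT and 35.8, 37.5 and 35.6% in WAT (adjusted p = 0.129). The groups did not overlap. Gata5 had only its start fragment, at 2.62 ± 0.483% in brown and 2.72 ± 0.276% in white/BWAT libraries (adjusted p = 0.913).

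Pairs of libraries of the same day have 1 library on each side and no test. A difference of at least 10 points between BAT and WAT was found in 5 of the 63 fragments at day 0, in 8 at day 4 and in 8 at day 6, beside 8.79, 8.82 and 9.56% of all fragments. This was 7.94% of the members at day 0 and 12.7% at days 4 and 6. Only the Gata6 exon fragment and the Hand2 intron fragment passed in the same direction at all 3 days. The share over all fragments was not counted for this, so no excess can be read from it. Hand2 differed by −16.7, −21.9 and −14.6 points at days 0, 4 and 6, and Gata6 by −13.9, −14.2 and −12.02 points. All 8 called fragments had the same sign at the 3 days. They had been called on these same libraries, so the shared sign adds no support.

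Between BAT + NE and BAT of day 6, 2 fragments passed 10 points, beside 3.59% of all fragments. They were the Hand2 intron fragment, 13.1 points higher in BAT + NE, and the Gata2 3′ UTR fragment, −14.4 points. Between BWAT and WAT, 1 fragment passed at day 4 and 0 at day 6, beside 2.56 and 2.42% of all fragments. The 1 was the downstream Nr2f1 fragment 20286 to 20438 bp after the start, with 50.4% in BWAT and 40.2% in WAT.

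The change with differentiation was tested between the 7 libraries of days 4 and 6 and the 2 libraries of day 0, with cell type in the model. No fragment of the 9 genes was called by limma, where 0.173% of all fragments were called, and 12 (19.0%) had an unadjusted p under 0.05, beside 8.57% of all fragments. The level was higher on the later days in 10 of these 12. Day 0 had only 2 libraries, and the excess over all fragments leaned on BAT of day 0. Without that library the share of the 9 genes was no longer above that of all fragments. The estimate was above 0 in 45 of the 63 fragments (71.4%), against 59.0% of all fragments, with a median log2 odds change of 0.12 against 0.055. Among the gene windows 0 of 9 were called, where 0.266% of all windows were, and 5 had an unadjusted p under 0.05, beside 12.1% of all windows.

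In percentage points the largest change by day was at the downstream Nr2f1 fragment of 20 cytosines named above. In BAT it had 30.7, 47.2 and 57.4% at days 0, 4 and 6, and 49.4% in BAT + NE. In WAT it had 35.2, 40.2 and 41.9% at days 0, 4 and 6, and BWAT had 50.4 and 46.6% at days 4 and 6. All 7 later libraries were above both libraries of day 0, with a log2 odds change of 0.88 and an adjusted p of 0.280. On the log2 odds scale an intron fragment of Gata4 had a larger estimate, −1.07, at levels of 1.67% on the later days and 3.03% on day 0 (adjusted p = 0.777). Of the gene windows the smallest adjusted p for day was 0.196, at Nr2f1, followed by 0.201 at Nr2f2, 0.242 at Gata2 and 0.292 at Hand1. A test of whether the change from day 0 differed between cell types called 1 of all fragments (0.00149%) and 0 of the 63, of which 3 (4.76%) had an unadjusted p under 0.05, beside 4.602% of all fragments.

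**Figure D5:**
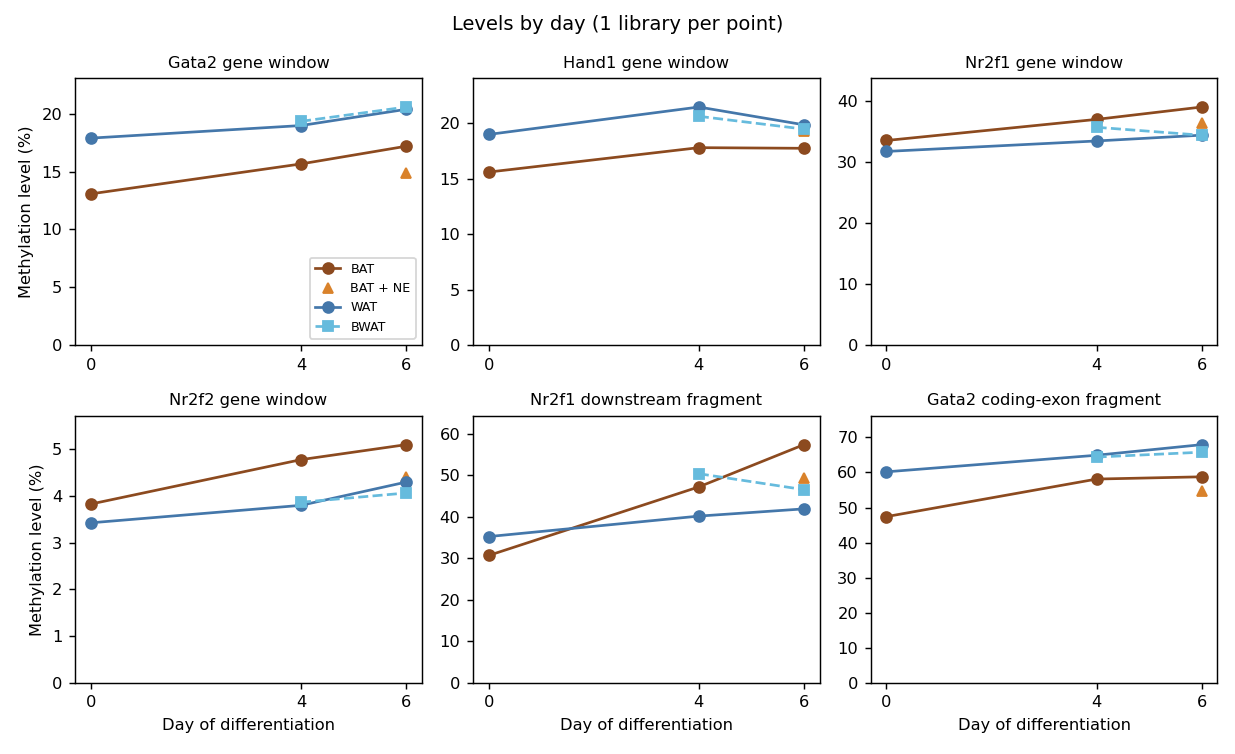
Methylation level (%) by day of differentiation for the gene windows of Gata2, Hand1, Nr2f1 and Nr2f2, the downstream Nr2f1 fragment and the Gata2 coding-exon fragment, with 1 library per point. In all 6 panels the BAT and WAT points of days 4 and 6 lie above the day 0 point of the same cell type. The windows shown had the smallest adjusted p for day among these genes, and the downstream fragment the smallest p for day at Nr2f1. The panels thus do not stand for the other fragments, and no fragment of these genes was called by day. The Gata2 lines of BAT and WAT stay apart at every day.

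Other genes of the same circuits were read from lists of cofactors and of target genes. The 26 cofactors and partners had 195 fragments, of which 20 were called (10.3%), 15 higher and 5 lower in brown. The 10 targets had 46 fragments, of which 5 were called (10.9%), 3 higher and 2 lower in brown. Both total shares were near the background given above for all fragments. The direction of the cofactor calls, which lay in 12 genes, was not like that background. Of all fragments 3.52% were called higher and 5.91% lower in brown. In the test of later days against day 0, 0 fragments of either list were called. The number of calls over both lists was 25, and without BAT or WAT of day 0 it was 16.

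The largest difference was at the target Nppa, the atrial natriuretic peptide gene of heart muscle, 3800 bp from its start and past its end. Brown libraries had 67.4 to 71.0% and white/BWAT libraries 31.2 to 37.3%. Near Cebpa, an inducer of fat cell genes, a fragment 11455 bp from the start had 30.4 to 45.8% in brown and 62.2 to 74.9% in white/BWAT libraries. Near Twist1, which encodes a helix-loop-helix partner of the Hand proteins, a fragment 6055 bp from the start had 40.7 to 47.98% in brown and 11.7 to 17.8% in white/BWAT libraries.

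Smaller differences were called inside Bcl11b, a zinc-finger partner of COUP-TF proteins, at 61.9 ± 3.20% in brown and 43.6 ± 4.44% in white/BWAT libraries, and inside Nrp2, a neuropilin gene, at 64.5 ± 5.88% in brown and 49.1 ± 3.87% in white/BWAT libraries. Nrp1 was lower in brown, with 64.7 ± 2.01%, against 79.98 ± 4.03% in white/BWAT libraries. Runx1, a partner of GATA factors in blood cells, held calls of both directions, at 54.1 ± 1.49% in brown and 69.2 ± 5.04% in white/BWAT libraries for one, and 91.4 ± 3.19% in brown and 76.7 ± 1.87% in white/BWAT libraries for the other. Prox1, a lymphatic regulator that binds COUP-TFII, also held calls of both directions, at 39.9 ± 4.76% in brown and 54.4 ± 4.44% in white/BWAT libraries for one, and 96.1 ± 1.88% in brown and 89.4 ± 4.26% in white/BWAT libraries for the other.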

How the data were processed

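The authors deposited 1 table of methylation levels as percent, with 1 column for each of the 9 libraries and no read counts. The submitters' processing notes name Bowtie (version not given in the sources used here) and mm9. Per the methods of the study, DNA was cut with MspI and TaqαI, and autosomal CpGs with at least 10 reads in every library were kept. Each strand is its own entry, and restriction-site cytosines (22.5% of the table) were kept.

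The Fisher's exact test of reads planned after the study's methods needs counts and could not be run. Mean levels of fragments, gene windows (at least 4 cytosines) and promoters (at least 2) were tested on log2((level + 1)/(101 − level)) with limma 3.58.1 in R 4.3.3, with the 9 libraries in 1 model that held cell type and a term separating day 0 from the rest. Values were adjusted by Benjamini-Hochberg over all units of a kind and called under 0.05. The step was tested on simulated data with 200 changed fragments, split evenly between sizes 1 and 2 in log2 odds. It recovered 54 of size 1 and 87 of size 2, with 4 false calls. The called fragments of the 9 genes had estimates under size 1, so differences of that order can be missed.

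The 9 genes, lists and tests were chosen with earlier results of these data known. Described in full are called fragments, the largest difference of a gene without a call, and up to 8 called list genes. Of the fragments nearest to a start only some are given. Alternatives were 8 cytosines, gaps of 100 bp, an offset of 5, untransformed percent, no restriction sites, averaged strands, a variance trend, no flank, no day term, promoters from 500 bp upstream, BAT and WAT alone with day as a block, and each library left out.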

Additional observations from a re-analysis of the deposited data

Results flagged for a closer look

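In 2 called fragments the BAT + NE library stood apart from the 3 BAT libraries by Dixon's criterion for 4 samples. In the Gata6 exon fragment it had 45.8%, against 36.4 to 37.1% in the BAT libraries, and the gap took 0.925 of the range of the brown libraries. In the Hand2 intron fragment it had 44.95%, against 29.2 to 31.8% in the BAT libraries, with a gap of 0.831 of the range. The criterion was applied to 34 groups, and chance passes about 1 group in 20. BAT + NE is 1 library, and the cause of its distance was not tested.

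At the upstream Nr2f1 fragment the change from day 0 ran in opposite directions in the cell types. All 3 later brown libraries were under BAT of day 0, on average by −2.96 points, and all 4 later white and BWAT libraries were above WAT of day 0, on average by 3.498 points, so that the changes differed by −6.46 points. The interaction test across all fragments gave this one an unadjusted p of 0.0774 and an adjusted p of 1.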

How the results depend on the processing

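The count of 8 called fragments of the 9 genes was 13 on untransformed percent and 4 to 6 with 1 library left out. Over all 67233 fragments the count of 6340 was 7578 on untransformed percent and 4472 to 5318 with 1 library left out. BAT and WAT alone with day as a block (paired by day only) called 0 of 63, and 1530 of all fragments. An unadjusted p under 0.05 was found for 16 of the 63 (25.4%), beside 17.2% of all fragments. The estimates of all 8 fragments kept their sign under every alternative that could be run. Without restriction sites, the upstream Nr2f1 and the intron Gata6 fragments were too short to test. Gene windows called were 3, and 1 to 4 with 1 library left out, beside 2142, and 1326 to 1729, of all 23685 windows. The block by day gave 0, with 6 (66.7%) at an unadjusted p under 0.05, beside 17.6% of all windows. Counts of 0 for day, interaction and promoters stayed 0 under all alternatives run for them. The 25 calls of the cofactor and target lists were 11 with at least 8 cytosines, 14 without restriction sites, 7 with the block by day, and 16 to 19 with 1 library left out. With minimum differences of 5 and 20 points the fragments that differed between BAT and WAT numbered 12 (19.0%) and 0 on day 0. Of all fragments, 24.7 and 1.69% differed by as much on that day. On day 4 the fragments of the 9 genes numbered 21 (33.3%) and 1 (1.59%), beside 25.3 and 1.74% of all fragments. On day 6 they numbered 22 (34.9%) and 0, beside 26.7 and 1.81% of all fragments.

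Leaving out either library of day 0 gives the same brown-white fit, as the day term then takes up the other. Without read counts, no interval for a single library can be given.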
